A study of Mus musculus with 24 samples.

Results

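The genes described here are 42 mouse genes that are read mainly from the copy inherited from 1 parent, some of them only in certain tissues. Such genes are called imprinted, and Mest was left out. They were chosen by name: 23 are read from the paternal copy, 18 from the maternal copy, and Gnas from either, depending on the transcript. Each gene was represented by the probe set that the platform annotation gives to that gene alone, and, where there were several, by the one whose mean over the 24 arrays was highest. Such a probe set was at hand for 38 of the 42 genes, among 18193 genes in all, and not for Dio3, Rtl1, H19 and Zrsr1. Of the 38, 30 had 3 or more arrays with a log2 value that reached 5 and were tested, among 9504 genes in all. These 30 were 14 paternally expressed genes, 15 maternally expressed genes and Gnas.

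The arrays measured total RNA from mouse embryonic stem cells of the strain 129/Sv, kept undifferentiated, that differed at Hdh, the gene of huntingtin, now named Htt. The genotype labels give the CAG repeat length of its alleles: 7/7 for 6 control arrays, null for 6 knock-out arrays, 7/16 for 3 arrays of the knock-in line Q20, 7/45 for 2 arrays and 7/43 for replicate 3 of line Q50, 7/85 for 3 arrays of line Q91 and 7/111 for 3 arrays of line Q111. Every knock-in line thus kept an allele of 7 repeats, as in the controls. The labels call the arrays of a group biological replicates, but whether these were separate clones or separate cultures of 1 clone is not given, so the p-values measure the spread between these arrays only. Values are log2 expression after GCRMA, and a difference of 1 on this scale is a 2-fold difference. A gene is called higher or lower, and is said to have risen or fallen, where limma's adjusted p was under 0.05.

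Imprinting is set in the germ line by DNA methylation at control regions and is then kept through cell division while the rest of the early embryo's genome loses and regains methylation. Most imprinted genes lie in clusters in which 1 control region governs genes of both parental classes. Many paternally expressed genes promote growth of the embryo or placenta and several maternally expressed genes restrain it. In embryonic stem cells the expression of imprinted genes is known to vary between lines and with culture, since their methylation can be lost or gained. The arrays measured the sum of both copies and neither the parental origin of a transcript nor methylation.

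In Q20, Q91 and Q111 most of the paternally expressed genes tested were higher than in the controls, in Q50 few passed, and the medians of the maternally expressed genes lay near 0 in all 4 lines. Of the 14 paternally expressed genes tested, 12 rose in Q20, 3 in Q50, 10 in Q91 and 10 in Q111, and 0 fell in any line. In Q50, Plagl1 (-0.71), Ndn (-0.05) and Magel2 (-0.01) had estimates below 0, and Mkrn3 passed in no line. The median log2 difference of the 14 from control was 1.51 in Q20, 0.82 in Q50, 1.09 in Q91 and 1.35 in Q111. Of the 15 maternally expressed genes, 4 rose and 2 fell in Q20, 1 rose in Q50, 3 rose in Q91, and 2 rose and 1 fell in Q111. The medians of the 15 were -0.07, 0.07, 0.16 and 0.11 in the same order. The difference between the classes was not itself tested. Among the maternally expressed genes, imprinting is placed in neurons for Ube3a, in brain for Commd1 and in placenta for Ascl2, Cd81, Tssc4 and Nap1l4. For Blcap and Ppp1r9a it depends on the tissue. Whether these genes are read from 1 copy in embryonic stem cells was not measured, so the class is a label here and not a measured origin. In the knock-out the paternally expressed genes included 2 that fell and 0 that rose, with a median of -0.37, and the maternally expressed genes 1 that rose and 0 that fell, with a median of -0.0059.

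Against the background of all 9504 genes, the members as a whole stood above it on the higher side in the lines. In Q20, 16 of the 30 members were higher and 2 lower, where 16.3% of all genes were higher and 10.4% lower. In Q50, 4 were higher and 0 lower, against 5.08% and 2.42% of all genes. In Q91, 14 were higher and 0 lower, against 13.3% and 11.3%. In Q111, 13 were higher and 1 lower, against 16.4% and 11.1%. In the knock-out, 2 members were higher and 2 lower, against 7.55% and 8.81%, a share close to that of all genes. The median over all genes lay between -0.019 and 0.029 in these 5 comparisons. Nnat, Dlk1, Sgce and Ascl2 passed the filter only through arrays of other groups than the controls, so the first 3 of these had to be higher somewhere to be tested. With the filter set on the control arrays alone, 26 members remained, of which 13 were higher and 2 lower in Q20, 4 and 0 in Q50, 12 and 0 in Q91, and 11 and 1 in Q111, where 15.1%, 4.86%, 12.2% and 15.1% of all genes were higher. The paternally expressed genes among these 26 were 11, of which 9 were higher in Q20, 3 in Q50, 8 in Q91 and 8 in Q111, with medians of 1.29, 0.85, 1.02 and 1.26. The 5 comparisons share the 6 control arrays, so they are not independent of each other.

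The member calls that moved with the scaling between arrays were of maternally expressed genes, and against control most were lower calls gained. Higher calls of Ube3a ended in Q20 and Q91 after centring. For the knock-out against the line mean, 6 members were higher instead of 4 under both scalings. The median of the tested probe sets was 0.118 higher in Q111 than in the controls and 0.0995 higher in Q20. With each array centred on its median, 15 members were higher and 5 lower in Q20 and 13 were higher and 3 lower in Q111, and with quantile normalization 16 and 5, and 13 and 3. The counts of the 14 paternally expressed genes stayed at 12, 3, 10 and 10 higher and 0 lower under both. Over all genes the same centring turned 16.3% higher and 10.4% lower in Q20 into 12.4% and 18%, and in Q111 it gave 12.3% and 20.1%; quantile normalization gave 13.5% and 17.7%, and 13.7% and 19.6%. The split of all genes after centring was 3.17% and 4.31% in Q50, 10.7% and 16% in Q91, and 27.8% and 22.7% for the knock-out against the line mean. The maternally expressed genes went from 4 higher and 2 lower in Q20 to 3 and 5 after centring and to 4 and 5 after quantile normalization, and in Q111 from 2 and 1 to 2 and 3 under both.

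**Figure D1:**
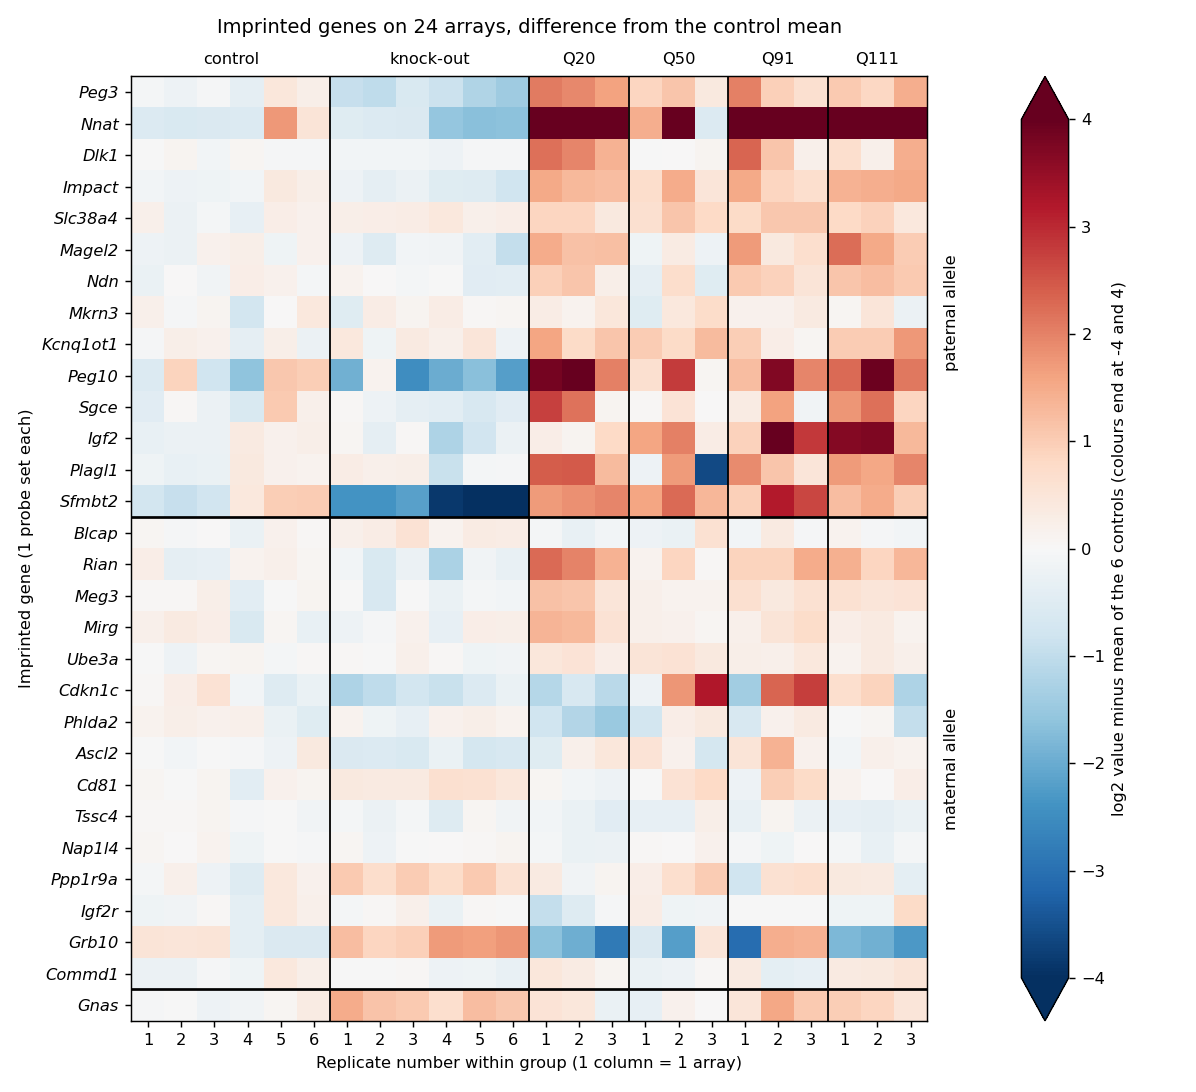
Difference of each tested imprinted gene from its control mean on all 24 arrays, in log2 units, with paternally expressed genes above, maternally expressed genes in the middle and Gnas at the bottom; 1 column is 1 array and colours end at -4 and 4. The paternal block is mostly red over the 12 knock-in columns, most of all in Nnat, and Grb10 is blue in the Q20 and Q111 columns and differs between the columns of Q91.

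Several facts on the arrays bear on every value below. Htt itself ran from 7.45 to 8.25 in the controls and from 6.67 to 7.39 in the knock-out, which was 0.80 lower (adjusted p = 0.00195), so its signal remained above 5 in cells labelled null. Which part of Htt was removed, and whether the probes lie in it, no source used here tells. Htt also fell in Q91 (by 1.05, adjusted p = 0.000565) and Q111 (by 0.79, adjusted p = 0.00445), so its level does not set the knock-out arrays apart from the lines. The description field of the labels contradicts the titles and genotypes: it calls the 6 arrays titled control cells without Hdh, and the 6 titled knock-out control cells. Titles and genotypes were followed here. If the description field were right instead, control and knock-out would be exchanged, every knock-out difference would change its sign, and every line would have been set against the other group. Controls 1 to 3 and 4 to 6 stood apart from each other in several genes below, and so did the knock-out arrays. Each array's deviations from its group mean were compared over all tested probe sets. Controls 1 to 3 correlated at 0.18 to 0.50 with knock-outs 4 to 6 and at -0.46 to -0.26 with knock-outs 1 to 3. Controls 4 to 6 correlated at 0.15 to 0.40 with knock-outs 1 to 3 and at -0.36 to -0.10 with 4 to 6. The split was thus not limited to the members, and its direction was opposite in control and knock-out. The labels name no batch for this, and values within each set are given beside the knock-out results. A fit with controls and knock-outs 4 to 6 only, with all knock-in arrays kept, and a fit with replicates 1 to 3 only, in every group, are named below where they end a call. The signal of Actb probes at the 3' end exceeded that at the 5' end by 1.54 in Q50 replicate 3 and by 0.75 to 1.03 on the other 23 arrays. Control replicate 4, which gave the lowest Htt value of the controls, had a median of 8.25 over the tested probe sets. The other 23 arrays had medians of 8.45 to 8.66. All 14 embryonic stem cell markers had a mean of 5 or more in every group, while 7 of them were lower in Q20, 7 in Q111, 8 in Q91 and 3 in Q50. Of all genes 10.4%, 11.1%, 11.3% and 2.42% were lower, in the same order. Higher were 1 marker in Q50 and 2 in the knock-out, where 5.08% and 7.55% of all genes were.

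Markers of some other cell types were higher in lines than in the controls. The shares of all genes that were higher were 16.3% in Q20, 5.08% in Q50, 13.3% in Q91 and 16.4% in Q111. Lower were 10.4%, 2.42%, 11.3% and 11.1%, and 8.81% in the knock-out. Few markers of each list were tested, so their counts are small. Of 14 listed trophoblast markers 7 were tested, and 4 were higher in Q20 (Eomes, Krt8, Krt18 and Fgfr2), 3 in Q50, 4 in Q91 and 3 in Q111. Their summed level, on the log2 scale, ran from 11.51 to 11.97 over the controls, from 12.45 to 14.57 over Q20, from 11.67 to 13.72 over Q50, from 13.46 to 15.53 over Q91 and from 14.02 to 14.20 over Q111. Of 7 tested primitive endoderm markers 4 were higher in each of Q20, Q91 and Q111 and 0 in Q50, and their sum ran from 11.77 to 12.38 over the controls, from 10.57 to 11.25 over the knock-out, where 2 were lower, and from 12.35 to 13.95 over the lines. Of 18 fibroblast markers 6 were tested, and 3 were higher in each of Q20, Q91 and Q111 and 0 in Q50. Their sums were 12.54 to 13.25 in the controls, 12.24 to 12.67 in Q50 and 12.89 to 14.23 over the other lines. Of 4 tested neural markers 1 was higher and 1 lower in each of Q20, Q91 and Q111, and 0 passed in Q50. Their sums were 9.45 to 10.12 in the controls and 9.08 to 10.25 over the lines. Of only 2 tested mesoderm markers, 1 of them Eomes, 1 was higher in each of Q20, Q91 and Q111. Eomes is on the trophoblast list too, so a rise of it counts in both lists. The larger rises among the trophoblast markers were in the keratins Krt8 (4.26 in Q20, 2.62 in Q50, 4.99 in Q91 and 4.87 in Q111) and Krt18 (4.24, 2.48, 4.86 and 4.79 in the same order). Eomes, a transcription factor of trophoblast and early mesoderm by these lists, went from a mean of 5.38 in the controls to 6.44 in Q20, 6.52 in Q91 and 7.01 in Q111. The remaining 7 trophoblast, 7 primitive endoderm and 12 fibroblast markers did not pass the filter, among them Cdx2 (group means of 2.96 to 3.16), Gata6 (2.82 to 2.94), Gata4 (2.45 to 2.55) and Dcn (2.19 to 2.27). Ascl2 is both a member here and on the trophoblast list. The part of these cells in the results on imprinted genes was not tested. In such bulk RNA a larger share of cells that express a gene and more RNA per cell cannot be told apart.

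Peg3 encodes a zinc finger protein read from the paternal copy and lies on chromosome 7 next to Usp29, which is read from the same copy in the opposite direction, and Zim1, which is read from the maternal copy. The bases between the starts of Peg3 and Usp29 are shown because 1 stretch holds the upstream sequence of both genes, of which only Peg3 was detected. They are given with the CpG pairs, the sites of DNA methylation, in capitals, for build GRCm38.p6 on the plus strand at chr7:6730420-6730582, from RefSeq.
Peg3 and Usp29: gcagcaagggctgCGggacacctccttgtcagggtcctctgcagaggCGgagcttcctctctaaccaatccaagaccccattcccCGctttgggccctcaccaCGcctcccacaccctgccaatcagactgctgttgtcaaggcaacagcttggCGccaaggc
This stretch of 163 bases holds 5 CpG pairs. Peg3 had a lowest, median and highest value of 9.64, 9.96 and 10.48 on the control arrays and 8.61, 9.05 and 9.42 on the knock-out arrays. The line arrays, in replicate order, gave 12.10, 11.95 and 11.61 in Q20, 10.87, 11.12 and 10.41 in Q50, 12.02, 10.98 and 10.66 in Q91 and 11.08, 10.84 and 11.46 in Q111. All 6 knock-out arrays lay below every control and 11 of the 12 knock-in arrays above every control. Peg3 fell by 1.00 ± 0.20 (SE) in the knock-out, a 2.00-fold lower level (adjusted p = 0.00238). It rose by 1.87 ± 0.25 in Q20 (adjusted p = 3.61e-05), 1.20 ± 0.25 in Q91 (adjusted p = 0.00158) and 1.11 ± 0.25 in Q111 (adjusted p = 0.00249), while the Q50 difference of 0.78 did not pass (adjusted p = 0.0556). All 3 of its probe sets were called in the same direction in the knock-out, Q20, Q91 and Q111. Within replicates 1 to 3 of the control and knock-out the fall was 0.74 (adjusted p = 0.167), and within 4 to 6 it was 1.26 (adjusted p = 0.0329). In Q111 the call ended with controls and knock-outs 4 to 6 only, at 1.01 (adjusted p = 0.0551). Usp29 and Zim1 stayed below the filter, with group means of 3.08 to 3.27 and 2.77 to 2.85.

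Nnat encodes neuronatin, a small membrane protein of the endoplasmic reticulum, and is read from the paternal copy inside an intron of Blcap on chromosome 2. Its estimated difference was the largest of any member in Q20, Q91 and Q111, from a control level near the floor. Its RefSeq promoter window is shown because of this size of change, as the 250 bases before its start at chr2:157559828-157560077 of GRCm38.p6, plus strand, with CpG pairs in capitals.
Nnat: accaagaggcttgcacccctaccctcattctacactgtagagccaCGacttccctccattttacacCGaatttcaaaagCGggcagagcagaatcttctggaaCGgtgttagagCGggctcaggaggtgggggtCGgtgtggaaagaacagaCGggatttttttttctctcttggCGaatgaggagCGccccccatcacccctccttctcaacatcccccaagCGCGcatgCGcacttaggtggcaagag
The window holds 12 CpG pairs. Nnat was at 3.57, 3.64 and 5.90 (lowest, median, highest) in the controls and at 2.51, 3.13 and 3.70 in the knock-out; only 1 control and no knock-out array reached 5. It was at 11.08, 11.30 and 9.16 in Q20, 9.77, 10.38 and 9.13 in Q91 and 11.33, 11.42 and 8.62 in Q111, so that these 9 arrays all lay above every control. The 3 arrays of Q50 differed widely, at 5.62, 10.34 and 3.64. The log2 difference was 6.34 ± 0.96 in Q20 (adjusted p = 0.00011), 5.58 ± 0.96 in Q91 (adjusted p = 0.000331) and 6.28 ± 0.96 in Q111 (adjusted p = 0.000102). The Q50 difference of 2.36 (adjusted p = 0.132) and the knock-out difference of -1.07 (adjusted p = 0.406) did not pass. Blcap, the maternally expressed neighbour that encodes a protein linked to apoptosis, was at 8.10 to 8.52 in the controls and 8.04 to 8.98 over the lines and passed in no comparison with control.

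The Dlk1-Meg3 cluster on chromosome 12 holds the paternally expressed Dlk1, a Notch-related surface protein, Rtl1 and Dio3, and the maternally expressed non-coding RNAs Meg3, Rian and Mirg, which are read in 1 direction and carry small RNAs. In Q20 all 4 tested members rose, in Q91 3 of them and in Q111 2, and 0 passed in Q50 or in the knock-out. Genes of opposite parental class thus rose together in Q20 and Q91. Rian, host of box C/D small nucleolar RNAs, was at 9.88, 10.34 and 10.49 (lowest, median, highest) in the controls and 8.95, 9.96 and 10.12 in the knock-out. It reached 12.50, 12.22 and 11.62 in Q20, 10.37, 11.09 and 10.29 in Q50, 11.12, 11.12 and 11.73 in Q91 and 11.65, 11.09 and 11.57 in Q111. The 9 arrays of Q20, Q91 and Q111 and 1 of Q50 were above every control. Rian rose by 1.88 ± 0.25 in Q20 (adjusted p = 4.1e-05), 1.09 ± 0.25 in Q91 (adjusted p = 0.00393) and 1.21 ± 0.25 in Q111 (adjusted p = 0.00156). With controls and knock-outs 4 to 6 only, the Q91 call ended at 0.96 (adjusted p = 0.0664). With the mean of its probe sets the Q111 rise was 0.69.

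Meg3, a long RNA linked to growth arrest, had a smaller change at a high level. It was at 12.01, 12.48 and 12.65 in the controls and 11.77, 12.34 and 12.40 in the knock-out. The lines gave 13.59, 13.53 and 12.92 in Q20, 12.63, 12.57 and 12.57 in Q50, 13.05, 12.81 and 13.05 in Q91 and 13.04, 12.89 and 12.99 in Q111. Every array of Q20, Q91 and Q111 lay above the controls and every array of Q50 within them. The rises were 0.92 ± 0.15 in Q20 (adjusted p = 0.000265), 0.54 ± 0.15 in Q91 (adjusted p = 0.0148) and 0.55 ± 0.15 in Q111 (adjusted p = 0.0123). Of 9 Meg3 probe sets, 9 were higher in Q20 and Q111 and 8 in Q91, with differences of up to 2.93 in Q20, so the probe set used here, chosen for its level, gave the smallest change of the 9 in Q20. With the mean of its probe sets the rises were 1.71 in Q20, 0.88 in Q91 and 1.00 in Q111. The Q91 call ended without Q91 replicate 1 (0.50, adjusted p = 0.0508) or 3 (0.50, adjusted p = 0.0622), and the Q111 call without Q111 replicate 1 (0.51, adjusted p = 0.058). With replicates 1 to 3 only, both ended, at 0.43 (adjusted p = 0.126 in Q91 and 0.107 in Q111).

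Mirg was at 8.51 to 9.48 in the controls and at 10.49, 10.42 and 9.71 in Q20, all 3 above every control, a rise of 1.08 ± 0.20 (adjusted p = 0.000688). Its arrays ran from 9.22 to 9.87 over Q50, Q91 and Q111, and it passed in none of these lines. Dlk1 was at 4.80 to 5.02 in the controls and 4.69 to 4.85 in the knock-out, at the edge of detection. It was at 7.09, 6.85 and 6.28 in Q20, 4.90, 4.92 and 5.00 in Q50, 7.24, 6.02 and 5.12 in Q91 and 5.57, 5.10 and 6.34 in Q111. All arrays of Q20, Q91 and Q111 were above the controls and those of Q50 were not. Dlk1 rose by 1.84 ± 0.29 in Q20 (adjusted p = 0.000172) and 1.22 ± 0.29 in Q91 (adjusted p = 0.00498), and the Q111 difference of 0.77 missed the threshold (adjusted p = 0.0591). The Q91 call ended without Q91 replicate 1 (0.66, adjusted p = 0.0509), with replicates 1 to 3 only (1.22, adjusted p = 0.0532) and with controls and knock-outs 4 to 6 only (1.23, adjusted p = 0.0687).

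The 3 non-coding hosts of this cluster contain 28 mature miRNAs in RefSeq's annotation of GRCm38.p6: 3 within Meg3, 6 within Rian and 19 within Mirg. They have 27 different seeds, the bases 2 to 8 that pair with targets, and 1 seed is shared by a pair of them, both within Mirg. That pair and an example from each host are shown to give the products that the host transcripts carry, 5' to 3' with the seed in capitals.
miR-453: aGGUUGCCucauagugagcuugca
miR-496a-5p: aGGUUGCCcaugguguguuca
miR-410-3p: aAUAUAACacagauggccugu
miR-370-3p: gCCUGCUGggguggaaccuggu
miR-770-5p: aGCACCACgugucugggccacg
These miRNAs were not measured here: the values are those of the host transcripts. The Meg3 promoter window at chr12:109540746-109540995, plus strand, is also shown. It is 1 of 4 windows, with those of Zim1, Plagl1 and Nap1l5, among the 51 of 35 members that hold the hexamer TGCCGC or its reverse complement GCGGCA, here in capitals, which is known as the core motif of the imprint protector ZFP57.
Meg3: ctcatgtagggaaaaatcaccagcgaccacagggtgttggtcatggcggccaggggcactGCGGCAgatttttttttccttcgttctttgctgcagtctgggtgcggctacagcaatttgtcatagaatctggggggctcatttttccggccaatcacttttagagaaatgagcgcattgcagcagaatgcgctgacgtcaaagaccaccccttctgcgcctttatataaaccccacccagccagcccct
The share of member windows with the hexamer, 7.84%, was close to the 8.68% of all 32851 windows. The median number of CpG pairs in a window was 10 for the members and 6 for all. All 51 member windows were searched, and the other Meg3 window did not hold the hexamer. Sequence outside these windows, such as control regions away from the starts, was not searched.

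The Snrpn cluster on chromosome 7, which corresponds to the Prader-Willi and Angelman region of humans, has the paternally expressed Snrpn, Ndn, Magel2, Mkrn3 and Peg12 and the maternally expressed Ube3a. Magel2, a regulator of ubiquitin ligases, was at 5.22, 5.45 and 5.70 (lowest, median, highest) in the controls and 4.51, 5.14 and 5.36 in the knock-out. It was at 6.92, 6.63 and 6.67 in Q20, 5.29, 5.79 and 5.26 in Q50, 7.17, 5.84 and 6.12 in Q91 and 7.69, 6.98 and 6.46 in Q111. Every array of Q20, Q91 and Q111 and 1 of Q50 was above the controls. Magel2 rose by 1.29 ± 0.26 in Q20 (adjusted p = 0.00133), 0.92 ± 0.26 in Q91 (adjusted p = 0.0149) and 1.59 ± 0.26 in Q111 (adjusted p = 0.00019). In Q91 the call ended without Q91 replicate 1 (0.52, adjusted p = 0.149) and with controls and knock-outs 4 to 6 only (0.83, adjusted p = 0.142).

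Ndn, which encodes the growth suppressor necdin, was at 8.92 to 9.47 in the controls and 8.74 to 9.32 in the knock-out. It was at 10.16, 10.29 and 9.41 in Q20, 8.82, 9.88 and 8.72 in Q50, 10.25, 10.11 and 9.69 in Q91 and 10.29, 10.42 and 10.25 in Q111. Replicate 3 of Q20 overlapped the controls, and the arrays of Q91 and Q111 did not. The rises were 0.76 ± 0.22 in Q20 (adjusted p = 0.0165), 0.83 ± 0.22 in Q91 (adjusted p = 0.0112) and 1.13 ± 0.22 in Q111 (adjusted p = 0.000957), and all 5 Ndn probe sets were higher in Q91 and Q111. The Q20 call ended without Q20 replicate 1 (0.66, adjusted p = 0.0945) or 2 (0.59, adjusted p = 0.112), and the Q91 call without Q91 replicate 1 (0.71, adjusted p = 0.0531) or 2 (0.78, adjusted p = 0.058). Both ended with controls and knock-outs 4 to 6 only, at 0.63 (adjusted p = 0.171) and 0.70 (adjusted p = 0.142). Mkrn3, a putative ubiquitin ligase, ran from 5.13 to 6.27 in the controls and 5.36 to 6.59 over the lines and passed nowhere.

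Ube3a, the ubiquitin ligase lost in Angelman syndrome, had small differences that were steady across arrays. It was at 12.04, 12.26 and 12.36 in the controls and 12.07, 12.24 and 12.43 in the knock-out. It was at 12.69, 12.79 and 12.50 in Q20, 12.74, 12.80 and 12.61 in Q50, 12.45, 12.44 and 12.67 in Q91 and 12.38, 12.59 and 12.44 in Q111, so all 12 line arrays lay above every control. The rises of 0.42 ± 0.10 in Q20 (adjusted p = 0.00378), 0.49 ± 0.10 in Q50 (adjusted p = 0.00515) and 0.29 ± 0.10 in Q91 (adjusted p = 0.0417) were 1.34-fold, 1.40-fold and 1.22-fold. Of its 4 probe sets 2 were higher in Q20 and 1 each in Q50, Q91 and Q111, with a range of 0.09 to 1.07 in Q91. The Q91 call held in 7 of 20 alternatives. It ended with replicates 1 to 3 only (0.32, adjusted p = 0.0801), with controls and knock-outs 4 to 6 only (0.25, adjusted p = 0.205), without control replicate 1 (adjusted p = 0.0609), 2 (0.0878) or 5 (0.0691) and without Q91 replicate 1 (0.0502), 2 (0.0678) or 3 (0.214). It also ended under both scalings. The Q20 call ended with each array centred on its median. With controls and knock-outs 4 to 6 only, Q20 was at 0.39 (adjusted p = 0.0505) and Q50 at 0.45 (adjusted p = 0.0628).

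The single-gene probe set of Snrpn, which encodes a splicing protein, was not detected, with values of 2.52 to 3.69, and Peg12 stayed at 3.97 to 5.17. Other probe sets that the annotation gives to both Snurf and Snrpn, which share a transcript, were clearly detected, and 1 of these ran from 11.82 to 12.14 over the controls and from 11.01 to 11.19 over the knock-out, and over the lines from 13.03 to 13.45 (Q20), 11.42 to 12.58 (Q50), 12.48 to 13.49 (Q91) and 13.31 to 13.48 (Q111). It was lower in the knock-out by 0.90 (adjusted p = 0.00135) and higher by 1.17 in Q20 (adjusted p = 0.000437), 0.80 in Q91 (adjusted p = 0.00792) and 1.36 in Q111 (adjusted p = 9.21e-05). Another was lower in the knock-out and higher in Q111, but was called neither in Q20 (0.26, adjusted p = 0.165) nor in Q91 (0.29, adjusted p = 0.136). A further probe set was at 3.06 to 3.27 in the controls and 3.13 to 3.23 in the knock-out. It passed the filter only through line arrays. The remaining probe sets past the filter were called in the same comparisons and directions as the first. These shared probe sets entered no count of members.

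The Kcnq1 cluster on chromosome 7 is governed by the paternally expressed non-coding RNA Kcnq1ot1, which silences maternally expressed neighbours on the paternal copy. Kcnq1ot1 was at 7.28, 7.71 and 7.88 (lowest, median, highest) in the controls and 7.43, 7.91 and 8.11 in the knock-out. It was at 9.23, 8.42 and 8.76 in Q20, 8.66, 8.42 and 8.91 in Q50, 8.62, 7.92 and 7.73 in Q91 and 8.65, 8.65 and 9.38 in Q111. All line arrays but replicate 3 of Q91 lay above every control. It rose by 1.16 ± 0.23 in Q20 (adjusted p = 0.00101), 1.02 ± 0.23 in Q50 (adjusted p = 0.00959) and 1.26 ± 0.23 in Q111 (adjusted p = 0.000454), and the Q91 difference of 0.45 did not pass (adjusted p = 0.172). The Q50 call ended with replicates 1 to 3 only (0.90, adjusted p = 0.092) and with controls and knock-outs 4 to 6 only (1.14, adjusted p = 0.0565).

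The 6 tested maternally expressed genes of this cluster did not move together. Phlda2, which restrains placental growth, was at 10.61, 11.26 and 11.33 in the controls and 10.77, 11.25 and 11.35 in the knock-out. It was at 10.29, 9.92 and 9.62 in Q20, 10.36, 11.37 and 11.50 in Q50, 10.45, 11.26 and 11.46 in Q91 and 11.07, 11.17 and 10.14 in Q111. The 3 arrays of Q20 lay below every control, and so did replicate 1 of Q50 and of Q91 and replicate 3 of Q111. Phlda2 fell by 1.16 ± 0.27 in Q20 (adjusted p = 0.0039), and this call ended with controls and knock-outs 4 to 6 only, at -0.97 (adjusted p = 0.0878).

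Cdkn1c, which encodes the cell cycle inhibitor p57, varied widely within lines. It was at 7.38 to 8.49 in the controls, 6.66 to 7.66 in the knock-out and 6.75, 7.26 and 6.83 in Q20. The arrays gave 7.71, 9.67 and 11.10 in Q50, 6.51, 10.25 and 10.68 in Q91 and 8.58, 8.81 and 6.67 in Q111. In Q91 the arrays thus lay on both sides of the controls, and no comparison with control passed (adjusted p = 0.167 to 0.929). Cd81, a membrane tetraspanin, was at 10.99 to 11.58 in the controls and above all of them on the 6 knock-out arrays, at 11.77 to 12.07, a difference of 0.47 that did not pass (adjusted p = 0.0613). Ascl2, a transcription factor needed in the placenta, was near the detection limit, at 4.53 to 5.11 in the controls and 4.03 to 4.48 in the knock-out, where all 6 arrays were below every control (-0.56, adjusted p = 0.07). Tssc4 and Nap1l4, a histone chaperone, passed against control in no comparison of the deposited values, with group means of 7.83 to 8.14 and 10.68 to 10.96. Under both scalings both were called lower in Q20 and Q111: after centring, Tssc4 was at -0.38 (adjusted p = 0.0335) and -0.44 (adjusted p = 0.0152), and Nap1l4 at -0.30 (adjusted p = 0.0127) and -0.27 (adjusted p = 0.0214). Slc22a18, a transporter, stayed below the filter at 2.60 to 3.72.

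**Figure D2:**
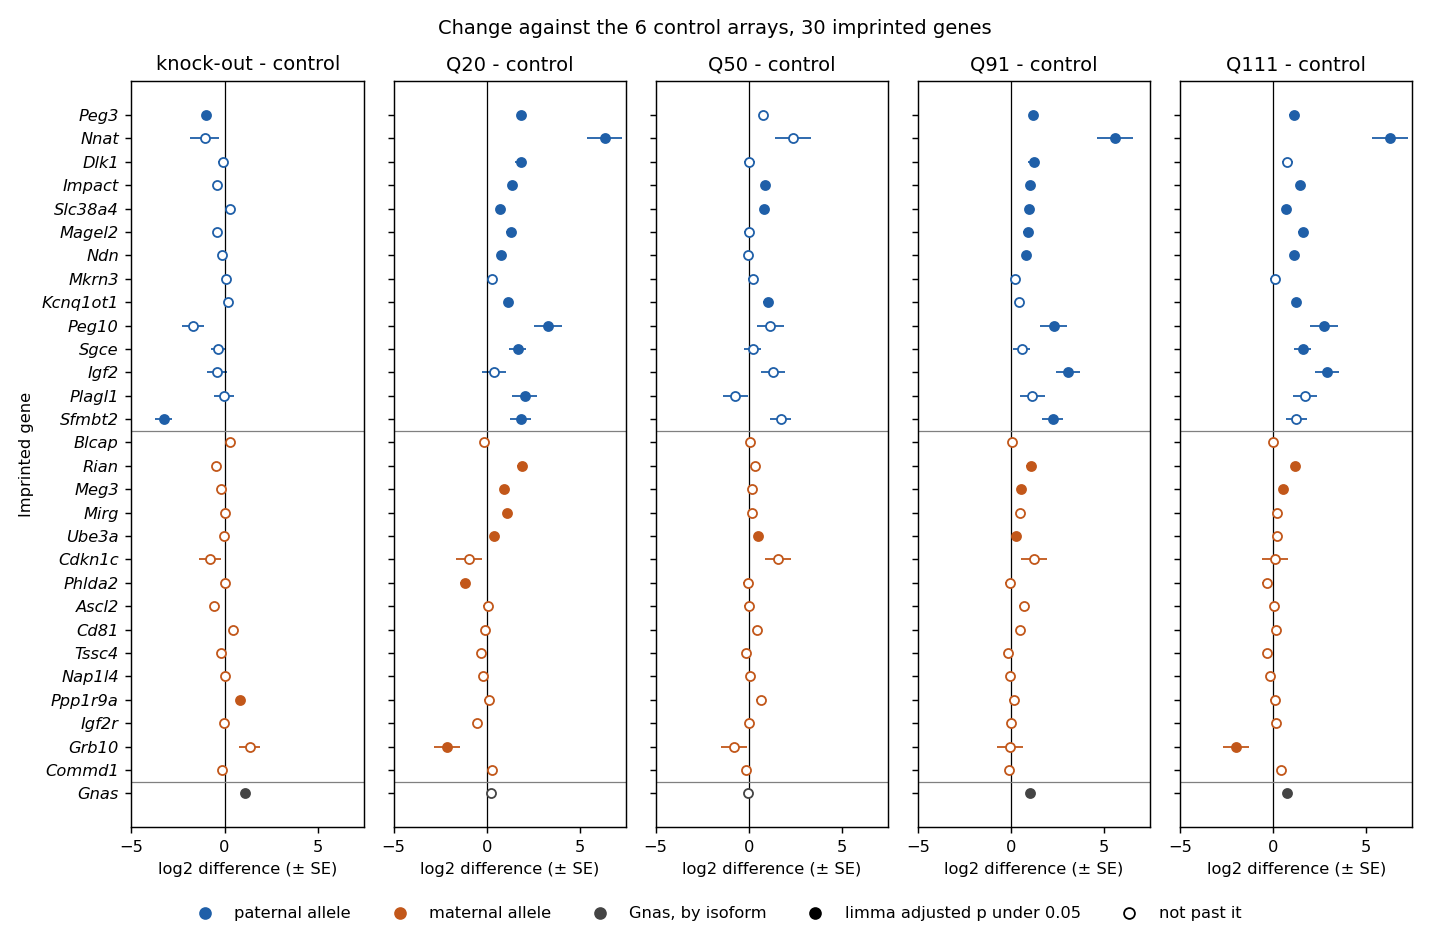
Log2 difference from the 6 control arrays with its standard error for the 30 tested imprinted genes in the knock-out and in each knock-in line; filled points passed limma's adjusted p of 0.05, open points did not. In Q20, Q91 and Q111 all 14 paternal points lie to the right of 0 while the maternal points scatter on both sides, and in the knock-out Peg3 and Sfmbt2 (-3.26) are the filled paternal points, both to the left of 0.

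The Igf2-H19 pair lies on chromosome 7. Igf2, read from the paternal copy, encodes a growth factor, and H19, read from the maternal copy, a non-coding RNA. Igf2 was at 4.54, 4.81 and 5.17 (lowest, median, highest) in the controls and 3.61, 4.53 and 4.90 in the knock-out. It was at 5.08, 4.94 and 5.61 in Q20, 6.39, 6.83 and 5.13 in Q50, 5.76, 10.22 and 7.67 in Q91 and 8.49, 8.57 and 6.14 in Q111. All arrays of Q91 and Q111 were above the controls, those of Q91 over a wide range. It rose by 3.05 ± 0.65 in Q91 (adjusted p = 0.00194) and 2.90 ± 0.65 in Q111 (adjusted p = 0.00245). Without Q91 replicate 2, the array at 10.22, the Q91 rise was 1.88 (adjusted p = 0.031). The control values lie on both sides of 5, near the floor, so these differences depend on that floor and are given with no fold. With controls and knock-outs 4 to 6 only, both calls ended, at 2.80 (adjusted p = 0.0534) and 2.65 (adjusted p = 0.0601). In Q20 the difference was 0.38 (adjusted p = 0.708).

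H19 has no probe set of its own, and 1 probe set is annotated to both Mir675 and H19, the gene whose transcript carries that miRNA. Its signal was at 12.72, 12.83 and 13.07 in Q20 and 11.78, 11.66 and 13.10 in Q111. It was at 10.02, 11.11 and 3.48 in Q50 and 12.79, 5.09 and 3.66 in Q91. The controls were at 4.01, 3.46 and 3.95 for replicates 1 to 3 and 7.00, 7.41 and 7.37 for 4 to 6, and the knock-out arrays at 3.60, 3.43 and 3.42, and 0.35, 0.55 and 0.40. It was higher by 7.34 in Q20 (adjusted p = 0.00315) and 6.65 in Q111 (adjusted p = 0.0059). In Q91 replicate 1 this signal was high while Igf2 was the lowest of its line, and replicates 2 and 3 had it low and Igf2 higher. In Q111 replicate 3 had the highest signal and the lowest Igf2 of the line. In Q50 the order was the same for both, highest in replicate 2 and lowest in replicate 3.

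The Peg10-Sgce cluster on chromosome 6 has the paternally expressed Peg10, a gene derived from a retrotransposon and needed in the placenta, and Sgce, which encodes a sarcoglycan, and the maternally expressed Ppp1r9a, a regulator of a protein phosphatase. Peg10 was at 4.81, 6.61 and 7.52 (lowest, median, highest) in the controls and 3.95, 4.49 and 6.58 in the knock-out. It was at 10.25, 10.47 and 8.44 in Q20, 7.08, 9.22 and 6.50 in Q50, 7.68, 10.14 and 8.37 in Q91 and 8.70, 10.34 and 8.54 in Q111. The 9 arrays of Q20, Q91 and Q111 were above every control. It rose by 3.29 ± 0.74 in Q20 (adjusted p = 0.003), 2.30 ± 0.74 in Q91 (adjusted p = 0.03) and 2.76 ± 0.74 in Q111 (adjusted p = 0.00933). The Q91 call ended without control replicate 1 (adjusted p = 0.0539), 3 (0.0581) or 4 (0.0584), without Q91 replicate 2 (1.59, adjusted p = 0.224) or 3 (0.0573), and with replicates 1 to 3 only (0.0752). The Q111 call ended without Q111 replicate 2 (2.18, adjusted p = 0.0774), and with controls and knock-outs 4 to 6 only both ended (adjusted p = 0.143 in Q91 and 0.0691 in Q111).

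Sgce was at 3.77 to 5.41 in the controls, below the detection threshold in most of them. It was at 7.10, 6.53 and 4.47 in Q20, 4.39, 4.92 and 4.38 in Q50, 4.67, 5.97 and 4.22 in Q91 and 6.12, 6.56 and 5.21 in Q111. Replicate 3 of both Q20 and Q111 overlapped the controls. The rises were 1.67 ± 0.46 in Q20 (adjusted p = 0.0112) and 1.60 ± 0.46 in Q111 (adjusted p = 0.0139). The calls ended without replicate 1 or 2 of the line, at 1.14 (adjusted p = 0.124) and 1.43 (adjusted p = 0.0717) in Q20 and at 1.52 (adjusted p = 0.0608) and 1.30 (adjusted p = 0.0931) in Q111, and with controls and knock-outs 4 to 6 only (adjusted p = 0.145 and 0.162). Ppp1r9a was at 6.48, 7.04 and 7.43 in the controls and 7.61, 7.87 and 8.04 in the knock-out, with all 6 knock-out arrays above every control. It rose by 0.85 ± 0.22 in the knock-out (adjusted p = 0.0124) and passed in no line. Within replicates 1 to 3 the difference was 0.95 (adjusted p = 0.123) and within 4 to 6 it was 0.76 (adjusted p = 0.24).

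**Figure D3:**
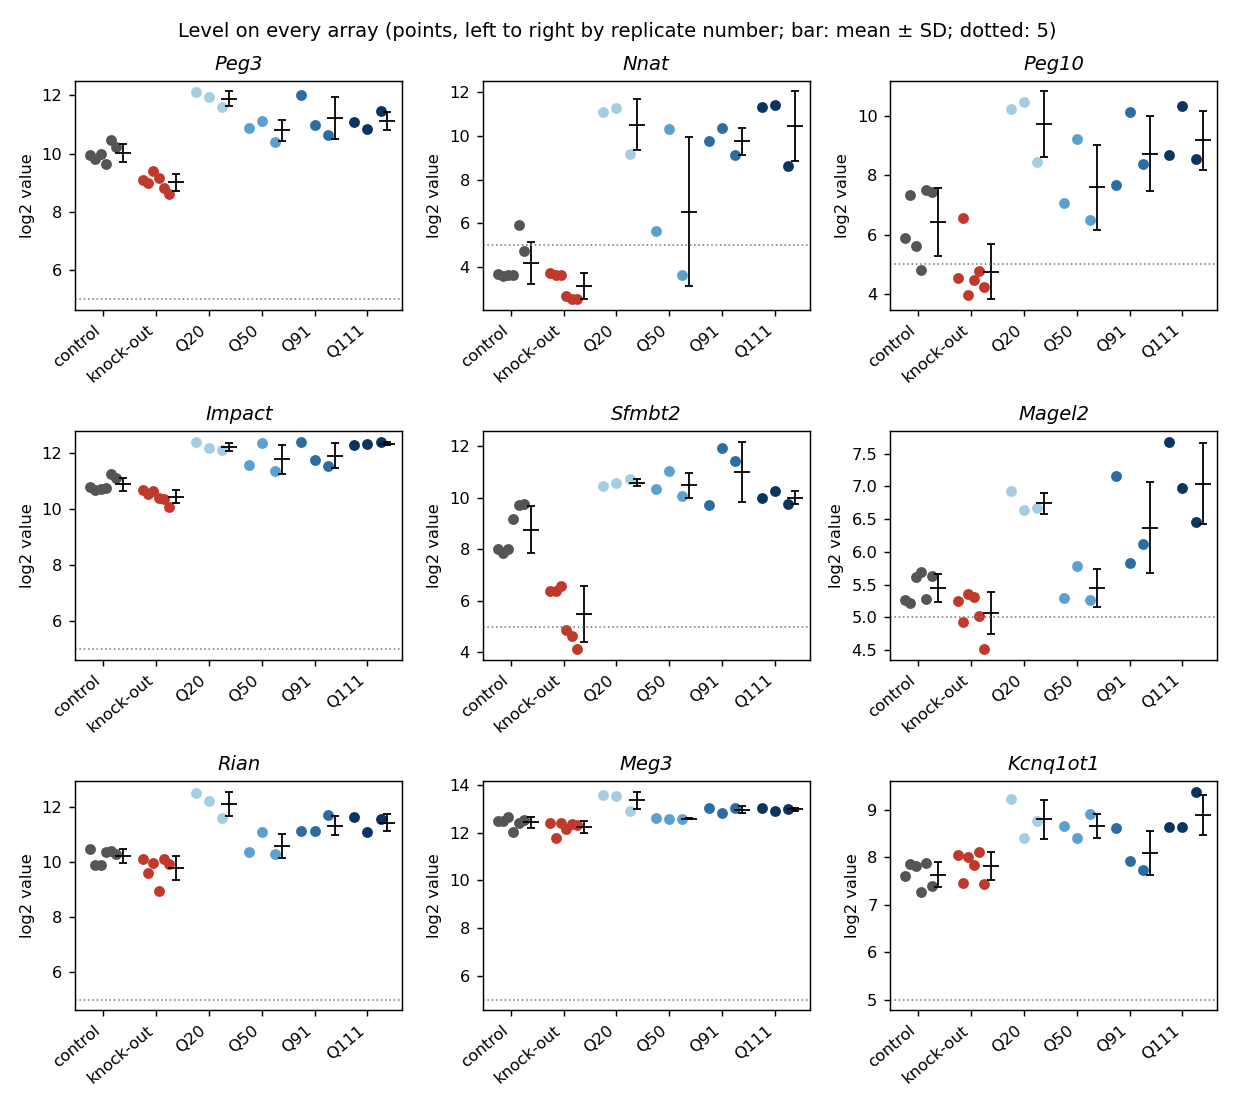
Log2 value of 9 imprinted genes on every array by group, with the group mean and SD as a bar at the right of each group and the detection threshold of 5 as a dotted line. Peg3 and Sfmbt2 show the knock-out arrays below every control and most line arrays above, and Meg3 shows smaller steps at a level near 12.43 in the controls.

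Among the genes outside these clusters, Impact and Slc38a4 were the 2 members called in all 4 lines. Impact, a paternally expressed regulator of the Gcn2 stress pathway, was at 10.66, 10.75 and 11.25 (lowest, median, highest) in the controls and 10.07, 10.45 and 10.68 in the knock-out. It was at 12.37, 12.16 and 12.09 in Q20, 11.57, 12.35 and 11.35 in Q50, 12.39, 11.74 and 11.53 in Q91 and 12.26, 12.32 and 12.38 in Q111. All 12 line arrays lay above every control. Impact rose by 1.34 ± 0.20 in Q20 (adjusted p = 9.6e-05), 0.89 ± 0.20 in Q50 (adjusted p = 0.0102), 1.02 ± 0.20 in Q91 (adjusted p = 0.00101) and 1.45 ± 0.20 in Q111 (adjusted p = 3.71e-05). Its other probe set differed by -0.39 in Q91 and was not called there, and was higher in Q20 only. With the mean of the probe sets the Q91 call ended, at 0.32 (adjusted p = 0.344), as did the Q50 call, at 0.66 (adjusted p = 0.0726), and the Q111 rise was 0.93. The Q50 call also ended with only the 2 groups in the fit (adjusted p = 0.0649), without Q50 replicate 2 (0.60, adjusted p = 0.086) and with controls and knock-outs 4 to 6 only (0.73, adjusted p = 0.138).

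Slc38a4, a paternally expressed amino acid transporter, was at 10.91, 11.28 and 11.49 in the controls and 11.43, 11.50 and 11.64 in the knock-out. It was at 12.09, 12.08 and 11.64 in Q20, 11.86, 12.34 and 12.03 in Q50, 11.99, 12.31 and 12.32 in Q91 and 12.03, 12.15 and 11.64 in Q111, with all 12 line arrays above every control. The rises were 0.71 ± 0.15 in Q20 (adjusted p = 0.00168), 0.85 ± 0.15 in Q50 (adjusted p = 0.00178), 0.98 ± 0.15 in Q91 (adjusted p = 9.19e-05) and 0.71 ± 0.15 in Q111 (adjusted p = 0.00144). These 4 calls held in all 20 alternatives run for each. The other Slc38a4 probe set was higher in Q50 (0.45, adjusted p = 0.0492) and Q91 (0.55, adjusted p = 0.00682) and passed neither in Q20 (0.15, adjusted p = 0.457) nor in Q111 (0.17, adjusted p = 0.397). With the mean of both, the Q20 and Q111 rises were 0.43 and 0.44.

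Sfmbt2, a paternally expressed Polycomb-related protein, had the largest fall of any member in the knock-out. Its lowest, median and highest control values were 7.85, 8.60 and 9.76, with 7.85 to 8.02 on controls 1 to 3 and 9.19 to 9.76 on controls 4 to 6. The knock-out arrays were at 6.37, 6.38 and 6.59, and at 4.88, 4.63 and 4.12. The 6 knock-out arrays were below every control, and in each group replicates 4 to 6 stood apart from 1 to 3, in opposite directions. Sfmbt2 fell by 3.26 ± 0.46 (adjusted p = 0.000141). The fall was 1.51 within replicates 1 to 3 (adjusted p = 0.0456) and 5.02 within 4 to 6 (adjusted p = 1.96e-05). In the lines it was at 10.45, 10.58 and 10.72 in Q20, 10.35, 11.03 and 10.07 in Q50, 9.71, 11.92 and 11.43 in Q91 and 10.01, 10.25 and 9.75 in Q111, with 10 of 12 arrays above every control. It rose by 1.82 ± 0.57 in Q20 (adjusted p = 0.0227) and 2.26 ± 0.57 in Q91 (adjusted p = 0.00666). The differences in Q50 (1.73, adjusted p = 0.0637) and Q111 (1.24, adjusted p = 0.113) did not pass. With replicates 1 to 3 only they did, at 2.53 (adjusted p = 0.00413) and 2.05 (adjusted p = 0.00309). The Q20 call ended without Q20 replicate 1 (1.89, adjusted p = 0.0631), 2 (1.83, adjusted p = 0.0667) or 3 (1.76, adjusted p = 0.0666) and with controls and knock-outs 4 to 6 only (1.02, adjusted p = 0.145), and the Q91 call without Q91 replicate 2 (1.81, adjusted p = 0.0693). With controls and knock-outs 4 to 6 only, the Q91 rise was 1.46 (adjusted p = 0.044).

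Plagl1, a paternally expressed zinc finger factor that is known to regulate other imprinted genes, has the hexamer, in capitals, in the promoter window of GRCm38.p6 at chr10:13090582-13090831, plus strand.
Plagl1: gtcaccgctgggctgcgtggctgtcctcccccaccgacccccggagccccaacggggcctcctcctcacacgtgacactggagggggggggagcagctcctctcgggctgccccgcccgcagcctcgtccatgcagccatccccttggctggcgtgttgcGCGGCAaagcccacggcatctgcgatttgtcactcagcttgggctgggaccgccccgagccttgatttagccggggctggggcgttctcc
The Plagl1 values rest on 1 probe set, since its other probe sets, with means of 3.05 and 2.72 over the 24 arrays, did not pass the filter. Plagl1 was at 8.53, 8.82 and 9.23 in the controls and 7.92, 8.91 and 9.12 in the knock-out. It was at 11.25, 11.29 and 10.10 in Q20, 8.63, 10.52 and 5.21 in Q50, 10.71, 9.94 and 9.31 in Q91 and 10.53, 10.38 and 10.77 in Q111. The 9 arrays of Q20, Q91 and Q111 were above every control, and the arrays of Q50 spread over more than the range of all other groups. Its rise of 2.05 ± 0.66 in Q20 passed (adjusted p = 0.027), and the differences of 1.16 in Q91 (adjusted p = 0.228) and 1.73 in Q111 (adjusted p = 0.0575) did not. The Q20 call ended without Q20 replicate 1 (1.86, adjusted p = 0.112) or 2 (1.84, adjusted p = 0.107), with replicates 1 to 3 only (2.29, adjusted p = 0.0795) and with controls and knock-outs 4 to 6 only (1.81, adjusted p = 0.21).

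Grb10, a maternally expressed adaptor that restrains growth factor signalling, was the member with the largest fall in the lines. Controls 1 to 3 were at 10.80, 10.77 and 10.80 and controls 4 to 6 at 9.89, 9.71 and 9.69. The knock-out arrays were at 11.52, 11.13 and 11.25, and at 11.97, 11.91 and 12.05, all above every control. Q20 was at 8.62, 8.31 and 7.44 and Q111 at 8.49, 8.36 and 7.98, all below every control. Q50 was at 9.71, 8.06 and 10.76, and Q91 at 7.24, 11.73 and 11.66, so its replicate 1 was the lowest of all arrays and the other 2 were near the knock-out level. Grb10 fell by 2.15 ± 0.70 in Q20 (adjusted p = 0.0285) and 2.00 ± 0.70 in Q111 (adjusted p = 0.0395), and its Q91 difference of -0.07 became 1.41 without Q91 replicate 1 (adjusted p = 0.042). Each fall held in 9 of 20 alternatives. They ended, among others, without control replicate 1, 2 or 3 (adjusted p = 0.0511 to 0.0522 in Q20 and 0.0684 to 0.0705 in Q111), without replicate 1, 2 or 3 of the line (-2.40 to -1.81 with adjusted p = 0.0542 to 0.119 in Q20, and -2.11 to -1.86 with adjusted p = 0.0866 to 0.111 in Q111), with replicates 1 to 3 only and with controls and knock-outs 4 to 6 only. In each of the 2 lines, 1 of its 3 probe sets was called. The knock-out difference of 1.36 did not pass (adjusted p = 0.114), while 1 of the other 2 probe sets, with a lower signal, was called higher there at 1.35 (adjusted p = 0.0011). The difference of 1.36 was 0.51 within replicates 1 to 3 and 2.22 within 4 to 6.

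Gnas encodes a G protein subunit and other products from promoters of different parental origin, which the probe set does not separate. It was at 11.80, 11.97 and 12.31 in the controls and 12.68, 13.12 and 13.49 in the knock-out. It was at 12.56, 12.45 and 11.73 in Q20, 11.66, 12.16 and 12.03 in Q50, 12.48, 13.55 and 13.04 in Q91 and 12.97, 12.85 and 12.50 in Q111. All arrays of the knock-out, Q91 and Q111 were above every control. It rose by 1.11 ± 0.17 in the knock-out (adjusted p = 0.000309), 1.02 ± 0.21 in Q91 (adjusted p = 0.00166) and 0.77 ± 0.21 in Q111 (adjusted p = 0.0105). In the knock-out it was 1.32 within replicates 1 to 3 (adjusted p = 0.00985) and 0.91 within 4 to 6 (adjusted p = 0.0638). The Q111 call ended without Q111 replicate 1 (0.68, adjusted p = 0.0682) and with controls and knock-outs 4 to 6 only (0.69, adjusted p = 0.121).

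Igf2r, the maternally expressed receptor that clears Igf2, and Commd1, a maternally expressed regulator of copper and NF-kappaB, passed in no comparison with control. Under both scalings Igf2r was called lower in Q20. Its group means were 8.58 to 9.23 and those of Commd1 11.27 to 11.84, although another Commd1 probe set was called higher in Q111. Airn, the non-coding RNA that silences Igf2r, stayed below the filter at 2.99 to 4.73, as did Rasgrf1 at 2.96 to 3.40 and Nap1l5 at 3.08 to 3.95. In all, 8 of the 38 measured members had a mean below 5 in every group, and 13 did so in the controls.

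The arrays of a line were unlike each other in several members. Q91 replicate 1 had the lowest Grb10, Cdkn1c and Igf2 values of its line and the highest Peg3, Dlk1, Magel2 and Plagl1. Q50 replicate 2 had the highest Nnat, Peg10, Plagl1 and Igf2 of its line, and Q50 replicate 3, the array with the 7/43 genotype and the largest Actb difference, had the lowest of all 4. Beside these values, the part of differences in RNA quality was not tested.

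**Figure D4:**
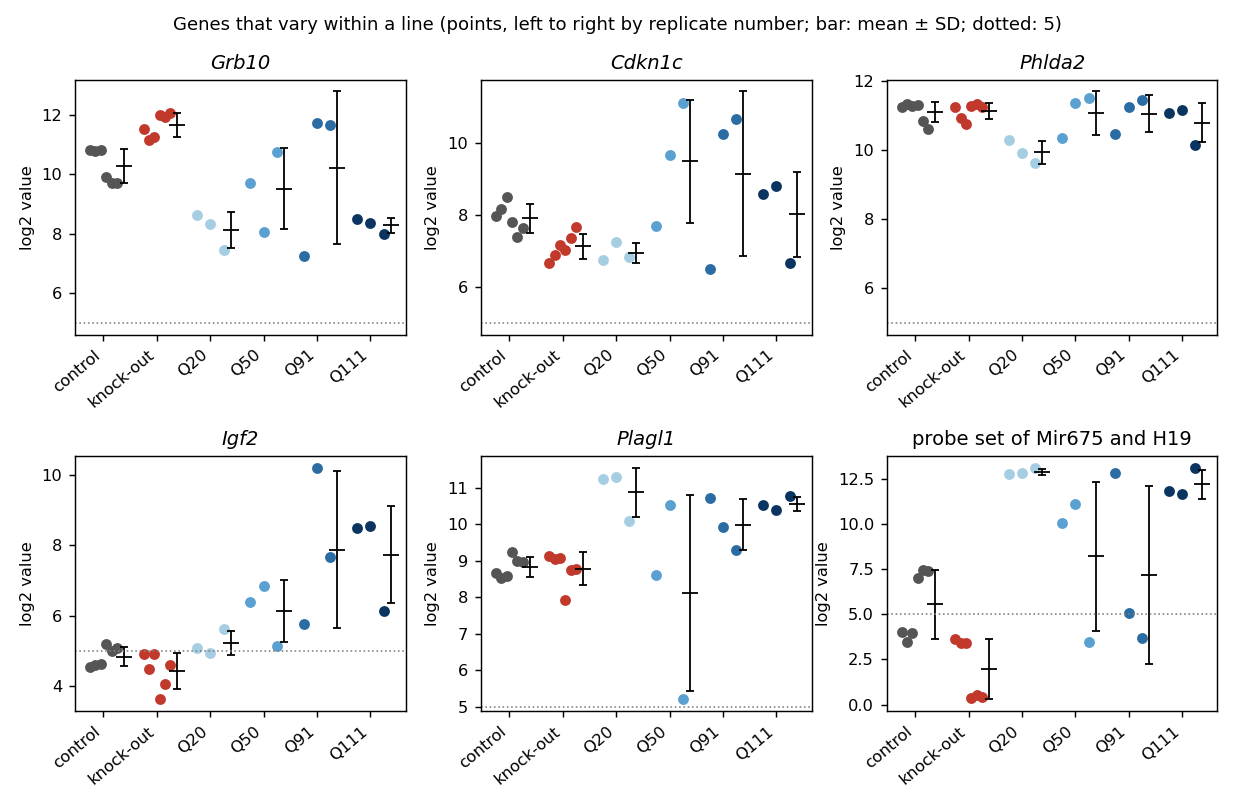
Log2 value on every array for 5 imprinted genes and for the probe set shared by Mir675 and H19, with the group mean and SD as a bar at the right of each group and 5 as a dotted line. In Q91, replicate 1 is low for Grb10 (7.24) and Cdkn1c (6.51) where the other 2 arrays are at 10.25 or more, and it is high for the shared probe set (12.79).

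Differences among the 4 lines themselves were not called. In the F-test on the 12 knock-in arrays 0 of 30 members passed, against 0.116% of all genes, and 10 members had an unadjusted p under 0.05, against 14.6% of all genes. Without Q91 replicate 1, 4 members passed, and the share of all genes under that setting was not counted. On the repeat number of the longer allele 0 members had a slope that passed, with 0.021% of all genes higher and 0.0316% lower with repeat number, and 3 members had an unadjusted p under 0.05, against 4.44% of all genes. The slopes of the members, per 100 repeats, included 2.93 ± 0.92 for Igf2 (adjusted p = 0.862) and -0.52 ± 0.40 for Peg3 (adjusted p = 0.985). With 1 line for each repeat number, line and repeat number cannot be told apart. Q20, whose longer allele has 16 repeats, had 18 called members, and Q111, with 111 repeats, had 14. Of all 9504 genes, 2538 were called in Q20 and 2607 in Q111.

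Against the mean of the 4 lines, 18 of the 30 members were lower in the knock-out and 4 were higher, where 27.9% of all genes were lower and 21.2% higher. Of the paternally expressed genes 12 of 14 were lower and 0 higher, and of the maternally expressed genes 6 of 15 were lower and 3 higher, which became 5 and 5 under both scalings. Among those lower are Nnat, Dlk1, Sgce and Ascl2, with no knock-out array at 5 and too few controls at 5 to pass the filter. They were tested only through line arrays, so their lower calls here are partly set by the filter. A count without them was not made for this comparison. Large differences were estimated for Nnat (6.21 ± 0.68 lower, adjusted p = 3.85e-07), Sfmbt2 (5.03 ± 0.40 lower, adjusted p = 7.55e-09), Peg10 (4.06 ± 0.52 lower, adjusted p = 2.97e-06) and Grb10 (2.61 ± 0.49 higher, adjusted p = 0.000213). No knock-out array of Nnat reached 5, and most of those of Peg10 did not, so the size of these differences depends on the floor. Blcap (0.32), Ppp1r9a (0.59) and Gnas (0.62) were the other members that were higher in the knock-out. Cdkn1c, lower by 1.27 (adjusted p = 0.0416), kept its call in 10 of 28 alternatives. With replicates 1 to 3 only, Blcap (adjusted p = 0.099), Ppp1r9a (0.0752) and Sgce (0.0576) missed the threshold, and with controls and knock-outs 4 to 6 only Blcap (0.225), Ppp1r9a (0.17), Gnas (0.0897) and Mirg (0.0842) did. These estimates use no control array. They share the knock-out arrays with the knock-out comparison above and the line arrays with those of the lines.

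The genes that write, protect or remove imprints were read from a list of 27, of which 24 were tested. In the knock-out 5 were lower and 0 higher (20.8% and 0%, against 8.81% and 7.55% of all genes), among them the DNA methyltransferases Dnmt3a, which fell by 1.44 ± 0.31 (adjusted p = 0.00358), and Dnmt3b, which fell by 1.18 ± 0.17 (adjusted p = 0.000195). Their cofactor Dnmt3l fell by 1.66 ± 0.13 (adjusted p = 3.67e-08), from 12.51 ± 0.21 (SD, n = 6) in the controls to 10.85 ± 0.06 (SD, n = 6), and Trim28, the corepressor that ZFP57 recruits, fell by 0.25 (adjusted p = 0.0276), a call that ended after centring. In Q20 3 of the 24 were higher and 7 lower (12.5% and 29.2%, against 16.3% and 10.4% of all genes), and in Q50 3 and 0 (12.5% and 0%, against 5.08% and 2.42%). In Q91 3 and 3 (12.5% each, against 13.3% and 11.3%) were near the background, and in Q111 there were 2 and 6 (8.33% and 25%, against 16.4% and 11.1%). After centring, 3 were higher and 9 lower in Q20, where 18% of all genes were lower, 2 and 7 in Q111, where 20.1% were, 1 and 0 in Q50, and 0 and 3 in the knock-out. Dnmt3b, at 11.96 ± 0.27 in the controls, rose by 1.16 in Q20 (adjusted p = 0.00062), 1.40 in Q91 (adjusted p = 0.000102) and 1.31 in Q111 (adjusted p = 0.000173). Dnmt3l rose by 0.71 in Q20 (adjusted p = 0.00233), 1.14 in Q50 (adjusted p = 0.000384) and 0.95 in Q91 (adjusted p = 0.000185). Tet2, an enzyme that oxidises methylated cytosine, fell by 1.25 in Q20 (adjusted p = 0.000474), 1.27 in Q91 (adjusted p = 0.000379) and 1.01 in Q111 (adjusted p = 0.00221). Zfp57, named because its motif was searched and not by the size of its change, was at 10.42 ± 0.48 in the controls and passed in no comparison with control (-0.69 to -0.29). Whether these genes bear on the imprinted genes was not tested.

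**Figure D5:**
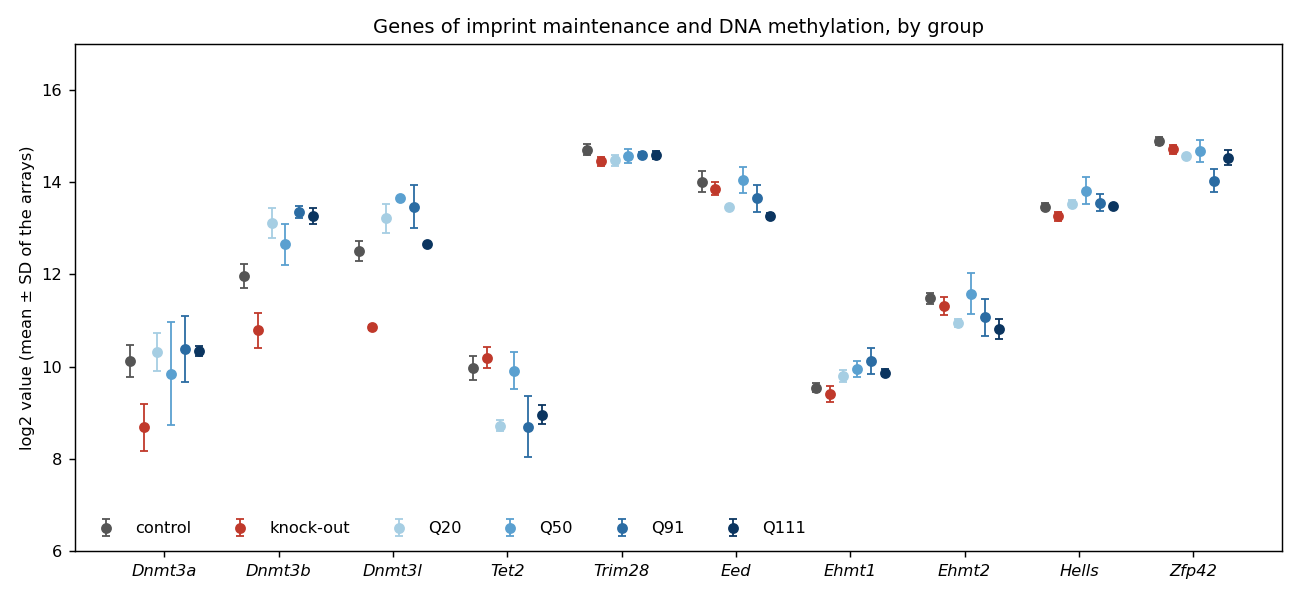
Mean log2 value with SD over the arrays of each group (n = 6 for control and knock-out, n = 3 for each line) for 10 genes of imprint maintenance and DNA methylation; values are set side by side between groups of 1 gene, not between genes. Dnmt3a, Dnmt3b and Dnmt3l are lowest in the knock-out, at 8.68, 10.78 and 10.85, and Dnmt3b is above the control mean in every line.

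Of 32 further imprinted genes on a second list, 12 were tested. In the knock-out 1 was higher and 3 lower, with Mest lower by 7.84 (adjusted p = 3.85e-14), Ddc, an enzyme of dopamine synthesis, lower by 1.18 (adjusted p = 0.00195) and Mcts2, a translation factor, lower by 1.15 (adjusted p = 0.000875). In Q20 4 of the 12 were higher and 1 lower, in Q50 1 and 0, in Q91 3 and 3, and in Q111 3 and 0, against the shares of all genes given above. After centring these were 3 and 2, 1 and 0, 3 and 3, and 2 and 0. Atp10a, a lipid flippase next to Ube3a, was higher in all 4 lines, by 2.67, 1.70, 2.06 and 2.41 in order of repeat number (adjusted p = 4.39e-05, 0.00725, 4e-04 and 8.78e-05). Mest rose by 1.43 in Q20 (adjusted p = 0.0033).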

How the data were processed

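Total RNA of 24 samples was hybridised to Affymetrix MG 430 2.0 arrays, 1 per sample. The authors deposited log2 values of 45101 probe sets, and the submitters' processing notes name GCRMA. This method adjusts background by probe sequence, normalizes between arrays and summarises probes, so low values crowd near a floor and their differences are compressed. No source used here gives its version. The 64 AFFX probe sets were left out, and the 17980 (39.9%) that had 3 or more arrays at a log2 value of at least 5 were tested. Genes were named from GEO's platform annotation, only where a probe set has 1 gene.

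All 24 arrays entered a limma 3.58.1 fit in R 4.3.3 with 1 mean for each group, leaving 18 residual degrees of freedom. Tests were two-sided, and p-values were adjusted by Benjamini-Hochberg across the 17980 tested probe sets. The 12 knock-in arrays alone gave the F-test and the slope. Array number limits the precision. The scripts were tested on simulated data.

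The members and lists were chosen with earlier results of these data known. All 42 members are accounted for, members called against control are named, and from the maintenance and further imprinted lists the 4 called genes with the smallest p per comparison may be named. Cell markers came from fixed lists. Alternatives were scaling, filter, probe set rule, intensity trend, array weights, replicate block, replicates 1 to 3 only, only the groups compared, and each array left out; controls and knock-outs 4 to 6 only was chosen after seeing the data. Promoters and miRNAs came from RefSeq tables of GRCm38.p6, which held a promoter window for 35 members.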

Additional observations from a re-analysis of the deposited data

Results flagged for a closer look

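In 8 of 60 groups of 6 arrays tested, the highest or lowest array of a member stood far from the other 5, where chance gives about 1 in 20. They were Meg3 in control replicate 4 at 12.01, Cd81 in control replicate 4 at 10.99, Ascl2 in control replicate 6 at 5.11 and in knock-out replicate 4 at 4.48, Dlk1 in knock-out replicate 4 at 4.69, Plagl1 in knock-out replicate 4 at 7.92, Mkrn3 in knock-out replicate 1 at 5.37 and Peg10 in knock-out replicate 2 at 6.58. Knock-out replicate 4 accounts for 3 of the 8 and control replicate 4 for 2. The median of all tested probe sets was also lowest on control replicate 4, at 8.25, against 8.45 to 8.66 on the other arrays. Its low Meg3 and Cd81 values are therefore not shown to be particular to these genes. Groups of 3 arrays were not examined in this way.

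Probe sets that stood outside the members, because the annotation gives them several genes, also carried signal above the controls. The probe set of Mir675 and H19 had a mean of 12.87 in Q20. The 5 probe sets of Snurf and Snrpn past the filter had Q111 means of 11.03, 11.23, 13.38, 11.56 and 6.62, each above its control mean of 10.51, 10.26, 12.02, 10.48 and 3.20. The last passed the filter only through line arrays.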

How the results depend on the processing

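The count of called members stayed within 1.5 times its main value except as follows. In the knock-out it was 4, and 11 with array weights, 11 with only the 2 groups in the fit, 2 with replicates 1 to 3 only and 2 with controls and knock-outs 4 to 6 only. In Q50 it was 4, and 8 with array weights and 2 with the mean of a gene's probe sets. The F-test gave 0, and 9 with array weights. With controls and knock-outs 4 to 6 only, chosen after seeing the data, the counts were 11 in Q20, 1 in Q50, 8 in Q91 and 8 in Q111. Leaving out each array gave ranges of 4 to 5 (knock-out), 13 to 19 (Q20), 3 to 6 (Q50), 10 to 15 (Q91), 10 to 15 (Q111), 20 to 23 (knock-out against the line mean), 0 to 4 (F-test) and 0 to 0 (slope). Apart from the scalings, the share of all genes called under the alternatives was not counted. A change in these counts may therefore be shared by all genes. For Grb10, Q91 versus control gave -0.07 and reversed to 1.41 without Q91 replicate 1, and it was -0.83 without replicate 2 and -0.79 without replicate 3.

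The replicate block gave 5, 15, 4, 13 and 13 calls in the knock-out, Q20, Q50, Q91 and Q111, 20 against the line mean and 0 in the F-test and the slope. It ended the Q20 calls of Grb10, Plagl1 and Sfmbt2, the Q91 call of Ube3a, the Q111 call of Grb10 and, against the line mean, those of Mirg and Cdkn1c. Same-numbered arrays correlated above 0.1 in 13 of 18 pairs between 2 lines (-0.28 to 0.46) and in 6 of 30 pairs with a control or knock-out array (-0.41 to 0.13). The numbers were therefore not taken as pairing lines with controls, and between lines they are a hint from the data, not from the design. Main limits are the 3 arrays per line, 1 line per repeat number, the unexplained difference between replicates 1 to 3 and 4 to 6, and values near the detection floor, where Dlk1, Nnat, Sgce and Ascl2 lie in the controls.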
